A study of Mus musculus with 15 samples.

Results

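Transcript levels of 10 circadian clock genes were described in the left ventricle of mice 8 days after infarct or sham surgery. The members were the rows of the deposited gene table whose gene name was Arntl, Clock, Npas2, Per1, Per2, Per3, Cry1, Nr1d1, Nr1d2 or Dbp, and 1 row was found for each, 10 of 54532 genes in all. The mice were C57BL/6JRj females aged 12 to 18 weeks, kept under 12 h of light a day. Poly-A RNA was sequenced in 3 groups of 5 libraries, and the labels name no engineered allele. Sham mice had the surgical control procedure and received the vehicle, 20% Captisol. In MI mice the left descending coronary artery was tied off permanently, and they received the same vehicle. GSK mice received GSK-343, an inhibitor of the histone methyltransferase EZH2, at 20 mg/kg in Captisol, once a day by the intraperitoneal route, the first dose 6 h after the operation and the last on day 7. Only the protocol tells that GSK hearts were infarcted, because their names hold nothing but the compound. Libraries of 1 animal make up all groups but for Sham replicates 1 and 2, which are mixes of 2 animals. The hour of tissue collection is not given in the sources used here, so its part in any value below was not tested.

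The clock of mammalian cells is a feedback loop of transcription. The proteins of Arntl (also called BMAL1) and Clock, or of Clock's relative Npas2, pair and bind E-box sequences, and switch on the Per and Cry genes, whose proteins return to inhibit the pair. In a side loop the nuclear receptors made from Nr1d1 and Nr1d2 (REV-ERB alpha and beta) repress Arntl at ROR elements, which RORs activate, while Dbp, an output factor, activates genes at D-boxes. In the heart, as in other tissues, Arntl, Npas2 and Clock transcripts on one side and Nr1d1, Dbp and Per transcripts on the other are known to peak at opposite times of day, so a single library gives a single phase of the cycle.

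The promoters of 4 members are shown because each holds a match to a motif searched here. They are RefSeq windows of 300 bases, from 250 before to 50 after an annotated start, on GRCm38.p6, the assembly of mm10, written 5′ to 3′ on the gene's strand, with the motif letters in capitals. The motifs searched on both strands were the E-box CACGTG, the D-box TTANGTAA and a loose ROR pattern TNGGTCA, where N is any base.
Cry1, chr10:85185005-85185304, minus strand: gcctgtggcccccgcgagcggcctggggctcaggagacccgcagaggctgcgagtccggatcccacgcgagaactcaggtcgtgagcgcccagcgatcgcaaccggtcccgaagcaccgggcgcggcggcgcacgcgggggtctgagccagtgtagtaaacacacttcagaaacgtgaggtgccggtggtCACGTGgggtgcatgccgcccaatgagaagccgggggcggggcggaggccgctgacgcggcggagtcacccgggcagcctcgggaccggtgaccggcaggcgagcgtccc
Per1, chr11:69098699-69098998, plus strand, the first of 2 windows: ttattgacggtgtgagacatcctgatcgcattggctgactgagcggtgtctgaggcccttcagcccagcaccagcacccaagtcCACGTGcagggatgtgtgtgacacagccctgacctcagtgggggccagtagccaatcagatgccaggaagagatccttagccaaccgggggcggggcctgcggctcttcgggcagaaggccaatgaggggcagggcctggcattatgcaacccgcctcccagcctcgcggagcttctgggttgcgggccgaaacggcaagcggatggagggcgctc
Per3, chr4:151044616-151044915, minus strand: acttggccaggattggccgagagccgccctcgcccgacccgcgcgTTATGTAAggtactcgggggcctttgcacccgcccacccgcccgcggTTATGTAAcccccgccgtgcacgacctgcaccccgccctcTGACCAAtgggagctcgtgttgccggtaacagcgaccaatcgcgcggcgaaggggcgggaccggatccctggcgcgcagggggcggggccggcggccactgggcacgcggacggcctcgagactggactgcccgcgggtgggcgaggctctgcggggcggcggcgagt
Arntl, chr7:113207261-113207560, plus strand, the second of 2 windows: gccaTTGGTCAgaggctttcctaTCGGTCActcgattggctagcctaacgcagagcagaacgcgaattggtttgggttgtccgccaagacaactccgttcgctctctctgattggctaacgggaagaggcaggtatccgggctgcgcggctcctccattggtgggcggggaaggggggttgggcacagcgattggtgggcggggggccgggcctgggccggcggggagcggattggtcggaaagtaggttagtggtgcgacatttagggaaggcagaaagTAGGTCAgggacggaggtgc
The E-box lay with its first base 60 bases before the start in Cry1 and 166 before it in Per1. Per3 held 2 D-boxes of the same letters, TTATGTAA, first bases at 205 and 158 before the start. It also held a match to the ROR pattern on the other strand. Arntl held 3 ROR elements, of which TAGGTCA lay after the start, first base at position 31. Of 9 members with an entry, in 13 windows, 2 held the E-box, 1 the D-box and 2 the ROR pattern. Among all 27025 genes with an entry the shares were 8.09%, 2.72% and 12.4%, and among all 32851 windows of this length 7.15%, 2.32% and 11%. Per2 had no entry. The matches describe letters in these windows only, and binding was not measured.

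Values are FPKM, fragments per kilobase of gene and depth unit on the authors' scale. The libraries held 21534017 to 26843564 fragments assigned to genes, and the members rested on 71 (the lowest library for Per2) to 2279 fragments (the highest for Clock). Mitochondrially encoded transcripts took 41.2% to 42.2% of the FPKM total in Sham, 23.2% to 40.6% in MI and 31.8% to 48.7% in GSK. MI replicate 4 (40.6%) and GSK replicates 3 and 4 (46.4% and 48.7%) were the highest of their groups. The 10 cardiomyocyte markers, which check the labelled tissue, summed to 15938 to 21125 in Sham, 10998 to 22131 in MI and 13273 to 19569 FPKM in GSK. No gene of any marker list was at 0 in all libraries. Of the 10 cardiomyocyte markers 6 were called lower in MI than in Sham, where 21.9% of all tested genes were called lower. Macrophage markers (8 of 8) and fibroblast markers (6 of 8) were called higher in MI, where 21.9% of all tested genes were called higher. Their summed FPKM was 477 to 814 and 734 to 1783 in MI, against 231 to 284 and 256 to 361 in Sham. Lymphocyte markers summed to at most 8.83 FPKM in any library, and 0 of 8 passed the filter on low values.

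In Sham hearts the members ranked, by mean FPKM, from Nr1d1 (13.1 ± 1.65, SD, n = 5) and Nr1d2 (12.0 ± 2.51) through Per1 (6.75 ± 3.23), Clock (6.59 ± 0.264), Cry1 (6.16 ± 1.26) and Arntl (5.06 ± 0.559) to Npas2 (2.29 ± 0.604), Dbp (2.03 ± 0.468), Per2 (1.38 ± 0.657) and Per3 (1.14 ± 0.414). The ranges of the 5 Sham libraries overlapped between all neighbours in this order except Arntl and Npas2. The plot of the members by library shows all 15 values of each gene.

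**Figure D1:**
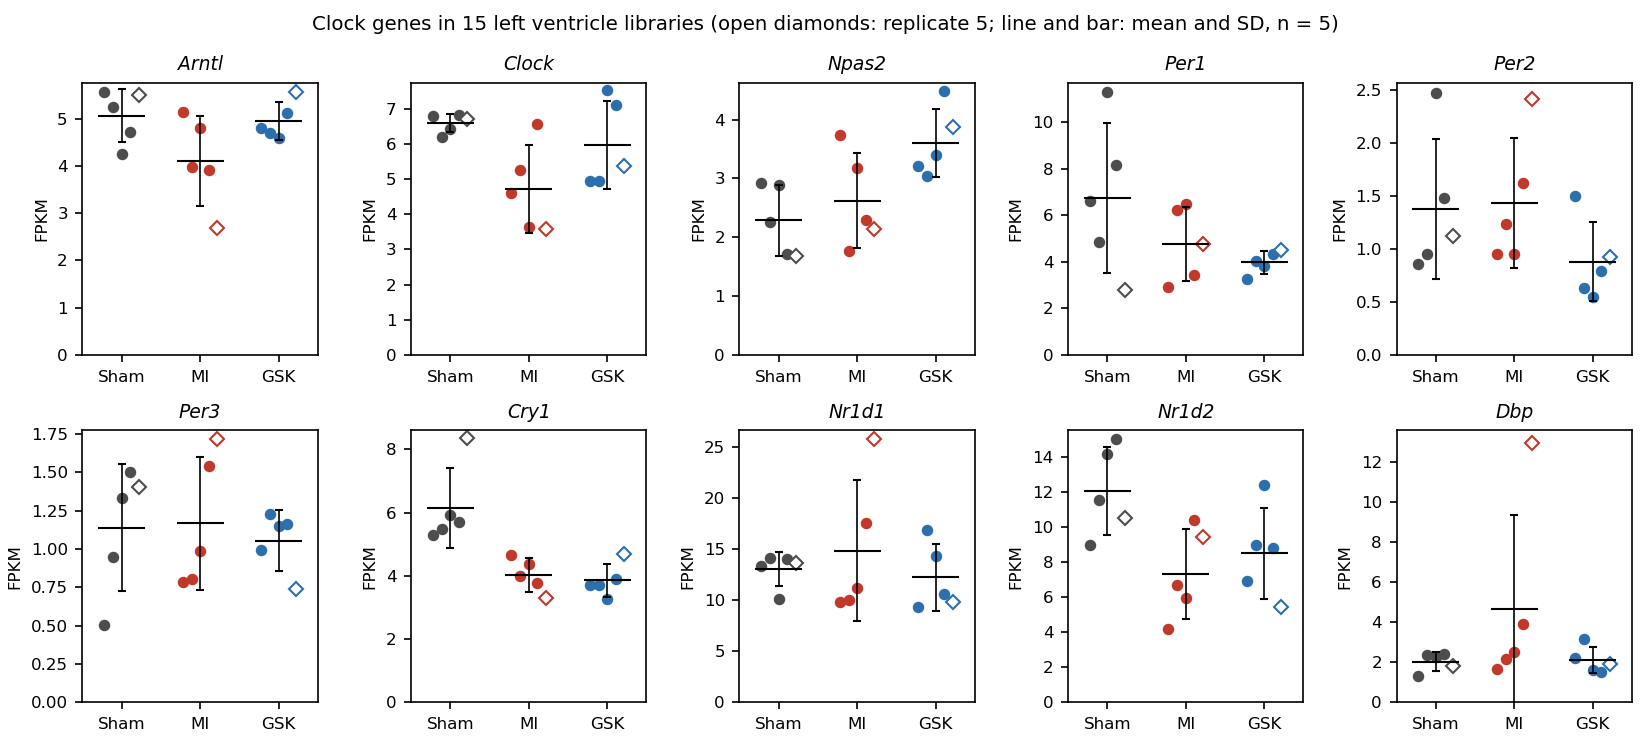
FPKM of the 10 members (vertical axes, from 0) in the 5 libraries of each group, with the mean and SD; open diamonds mark replicate 5 of each group, and the SD bar of Dbp in MI is cut at 0. Cry1 in all 5 MI and all 5 GSK libraries lies below the 5 Sham libraries, and Dbp in MI replicate 5 stands at 13.0 FPKM.

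In MI hearts 3 of the 10 members were lower than in Sham and 0 were higher. Cry1, a repressor of the loop, was at 6.16 ± 1.26 FPKM in the 5 Sham libraries and fell to 4.03 ± 0.527 (SD) in the 5 MI libraries. Clock, which encodes a partner of BMAL1, fell from 6.59 ± 0.264 to 4.73 ± 1.25, and Nr1d2, a repressor of Arntl, from 12.0 ± 2.51 to 7.34 ± 2.56. In this comparison 43.8% of the 12585 tested genes were called, 21.9% lower and 21.9% higher (2758 and 2757 genes, or 1897 and 3314 after totals were equalised over genes of the nuclear genome). The members' 3 of 10 lay below the share called in either direction and above the share called lower, and was not tested against either. The members' median difference in log2(FPKM + 1) was -0.12, against -0.02 over all tested genes, and 4 had an unadjusted p under 0.05 (51.8% of all tested genes). In bulk tissue, fewer cells of a type and less RNA per cell cannot be told apart.

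Cry1 (ENSMUSG00000020038, chromosome 10, 85131700 to 85185064 on mm10, minus strand) stood at 5.29, 5.48, 5.93, 5.72 and 8.36 FPKM in Sham replicates 1 to 5, at 4.67, 3.99, 4.38, 3.79 and 3.31 in MI, and at 3.71, 3.72, 3.28, 3.92 and 4.71 in GSK. Every library of infarcted hearts, with or without the inhibitor, lay below every Sham library. Among the members this held in MI only for Cry1 (29.8% of tested genes did not overlap between MI and Sham). The difference in log2(FPKM + 1) was -0.50 ± 0.11 SE for MI against Sham (95% interval -0.74 to -0.26, adjusted p = 0.00236) and -0.55 ± 0.11 for GSK against Sham (-0.78 to -0.31, adjusted p = 0.0054). Both comparisons use the same Sham libraries. Sham replicate 5 was far above its group, and without it the differences were -0.40 and -0.45, with adjusted p = 0.00466 and 0.0106. The 2 calls were kept in each of the 29 alternatives tried.

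Clock (ENSMUSG00000029238, chromosome 5, 76209868 to 76304792 on mm10, minus strand) was at 6.78, 6.21, 6.43, 6.83 and 6.70 FPKM in Sham, at 4.62, 5.25, 3.63, 6.58 and 3.57 in MI, and at 4.94, 4.93, 7.54, 7.12 and 5.37 in GSK. The Sham libraries were tight, with an SD of log2 values larger than in 6.98% of tested genes, while the libraries of infarcted hearts were spread out. The highest infarcted libraries, MI replicate 4 and GSK replicates 3 and 4, are those with the highest mitochondrial share, and the part of that share in the values was not tested. The difference for MI against Sham was -0.43 ± 0.14 SE (adjusted p = 0.0195). The call was lost after totals were equalised over nuclear genes (-0.34, adjusted p = 0.112) without the 2 mixed Sham libraries (adjusted p = 0.0593) and without MI replicate 3 (adjusted p = 0.0563). For GSK against Sham the difference was -0.14 ± 0.14 (95% interval -0.43 to 0.15, adjusted p = 0.502). Without MI replicate 4 and GSK replicates 3 and 4 it was -0.32, and Clock was then called lower in GSK (adjusted p = 0.0382).

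Nr1d2 (ENSMUSG00000021775, chromosome 14, 18204054 to 18239127 on mm10, minus strand) was at 8.97, 11.6, 14.2, 15.01 and 10.5 FPKM in Sham, at 4.18, 6.73, 5.95, 10.4 and 9.46 in MI, and at 6.91, 8.96, 12.4, 8.81 and 5.45 in GSK. MI replicates 4 and 5 reached into the range of Sham, and 3 of 5 MI libraries lay below all Sham libraries. The difference for MI against Sham was -0.68 ± 0.22 SE (adjusted p = 0.0219), and the call was lost without any 1 of Sham replicates 3 and 4 and MI replicates 1 and 3 (adjusted p up to 0.0568), and with no filter on low values (adjusted p = 0.054). For GSK against Sham it was -0.48 ± 0.22 (95% interval -0.95 to -0.01, adjusted p = 0.139), and -0.69 without MI replicate 4 and GSK replicates 3 and 4, where it was called (adjusted p = 0.0456). The related receptor gene Nr1d1 was not called. Nr1d1 (ENSMUSG00000020889, chromosome 11, 98767932 to 98775333 on mm10, minus strand) was at 13.4, 14.1, 10.1, 14.0 and 13.7 FPKM in Sham, at 9.83, 9.99, 11.2, 17.5 and 25.8 in MI, and at 9.36, 16.9, 14.4, 10.7 and 9.87 in GSK. MI replicates 4 and 5 lay above every Sham library and MI replicates 1 and 2 below every one. The difference was 0.09 ± 0.23 (95% interval -0.40 to 0.57, adjusted p = 0.781), and -0.13 without MI replicate 5. Nr1d1 shares 263 of its 3077 exon bases (8.55%) with Thra on the other strand, and Thra stood at 27.8 ± 1.46 FPKM in Sham and 18.5 ± 1.99 in MI, so without a known strand setting the value of Nr1d1 is uncertain.

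Of the other activating members, Arntl was called in no comparison and Npas2 in 1. Arntl (ENSMUSG00000055116, chromosome 7, 113207465 to 113314126 on mm10, plus strand) was at 5.57, 5.24, 4.26, 4.71 and 5.51 FPKM in Sham, at 5.15, 3.97, 4.80, 3.92 and 2.69 in MI, and at 4.80, 4.69, 4.58, 5.12 and 5.56 in GSK. MI replicate 5 was the lowest of all 15 libraries, and all 5 GSK libraries lay within the range of Sham. The difference for MI against Sham was -0.26 ± 0.12 SE (95% interval -0.51 to -0.02, adjusted p = 0.0778); it was called without MI replicate 1 (adjusted p = 0.0276). Npas2 (ENSMUSG00000026077, chromosome 1, 39193731 to 39363236 on mm10, plus strand), which can stand in for Clock as the partner of BMAL1, was at 2.92, 2.26, 2.89, 1.71 and 1.68 FPKM in Sham, at 3.73, 1.77, 3.18, 2.29 and 2.14 in MI, and at 3.21, 3.04, 3.41, 4.49 and 3.87 in GSK. All 5 GSK libraries lay above all 5 Sham libraries, while MI overlapped both groups.

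GSK hearts differed from Sham in 2 members, Cry1 (above) and Npas2. Npas2 rose from 2.29 ± 0.604 to 3.60 ± 0.585 FPKM (SD, n = 5), a difference in log2(FPKM + 1) of 0.49 ± 0.15 SE (95% interval 0.17 to 0.82, adjusted p = 0.0368). Of 28 alternatives 12 ended this call, including the removal of any 1 of Sham replicates 2, 4 and 5 and GSK replicates 1, 3, 4 and 5 (adjusted p up to 0.0963). Of all tested genes 18.3% were called, 10.8% higher and 7.58% lower (1354 and 954 genes, or 1960 and 425 after totals were equalised over genes of the nuclear genome), and 18.4% did not overlap between GSK and Sham, against 2 of 10 members on both counts. The members' median difference was -0.12, against -0.02 over all tested genes, and 3 had an unadjusted p under 0.05 (34.7% of all tested genes).

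Between GSK and MI, the comparison that holds the inhibitor apart from infarction, 0 of 10 members passed the test in limma, 2 had an unadjusted p under 0.05, and 0 separated the 2 groups (0% of all tested genes called, 21% with an unadjusted p under 0.05, and 2.01% not overlapping). Limma's voom on recovered fragments also called 0 members. The 2 with an unadjusted p under 0.05 were Npas2 (0.36 ± 0.15 SE, 95% interval 0.04 to 0.69, adjusted p = 0.192) and Clock (0.29 ± 0.14, 8.64e-04 to 0.59, adjusted p = 0.237). Arntl was at 0.24 ± 0.12 (95% interval -0.01 to 0.49, adjusted p = 0.25). Cry1 had the narrowest interval, -0.28 to 0.19, around -0.05 (adjusted p = 0.83), and Dbp the widest, -1.30 to 0.12, around -0.59 (adjusted p = 0.314). This comparison shares its MI libraries with MI against Sham.

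**Figure D2:**
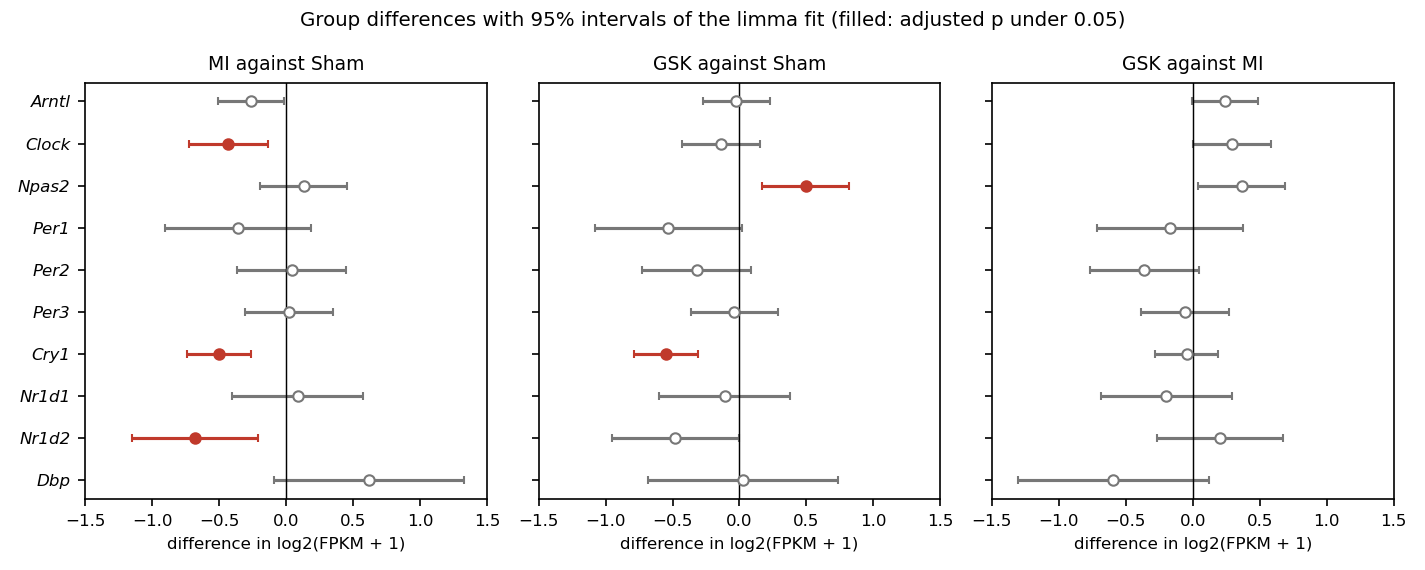
Difference in log2(FPKM + 1) between groups (horizontal axes) for the 10 members (vertical axis), with 95% intervals of the limma fit; filled points passed at an adjusted p under 0.05. Clock, Cry1 and Nr1d2 pass as lower in MI than in Sham, Cry1 as lower and Npas2 as higher in GSK than in Sham, and 0 members pass in GSK against MI.

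The Period genes, whose proteins inhibit the loop together with cryptochromes, were called in no comparison. Per1 (ENSMUSG00000020893, chromosome 11, 69095217 to 69109960 on mm10), which glucocorticoids are also known to induce, was at 6.61, 4.88, 11.3, 8.16 and 2.79 FPKM in Sham, at 2.94, 6.25, 6.49, 3.44 and 4.76 in MI, and at 3.26, 4.02, 3.81, 4.35 and 4.51 in GSK. The Sham libraries held both the highest and the lowest value of the 15, a 4.04-fold range, and the GSK libraries were close together. The within-group SD of its log2 values was larger than in 98.4% of tested genes in Sham, and than in 37.1% in GSK. The difference for MI against Sham was -0.36 ± 0.26 SE (95% interval -0.91 to 0.19, adjusted p = 0.269) and for GSK against Sham -0.53 ± 0.26 (-1.08 to 0.02, adjusted p = 0.155). Both were called without Sham replicate 5, at -0.59 and -0.76 (adjusted p = 0.0427 and 0.0376). In MI against Sham, 3 of 13 tested glucocorticoid-responsive genes were lower and 1 higher, a smaller share than the 43.8% called over all tested genes. That count does not bear on the spread of Per1 within Sham. The list summed to 437, 293, 423, 282 and 244 FPKM in Sham replicates 1 to 5. The part of glucocorticoids in the Per1 values was not tested.

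Per2 (ENSMUSG00000055866, chromosome 1, 91415982 to 91459324 on mm10) was highest in Sham replicate 3 (2.47 FPKM) and MI replicate 5 (2.42), and the other 13 libraries lay between 0.551 and 1.62. Per3 (ENSMUSG00000028957, chromosome 4, 151003652 to 151044665 on mm10) ran from 0.502 FPKM in Sham replicate 1 to 1.72 in MI replicate 5. For MI against Sham the 95% interval was -0.36 to 0.45 for Per2 and -0.30 to 0.35 for Per3 (adjusted p = 0.874 and 0.923), and for GSK against Sham -0.73 to 0.09 and -0.36 to 0.29 (adjusted p = 0.249 and 0.884). The gene body of Per3 lies inside that of Camta1, with 0 shared exon bases.

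Dbp (ENSMUSG00000059824, chromosome 7, 45705088 to 45710203 on mm10), the output factor that follows the E-box phase, had the widest range of the members, 9.89-fold. It was at 1.31, 2.36, 2.27, 2.39 and 1.80 FPKM in Sham, at 1.68, 2.16, 2.53, 3.93 and 13.0 in MI, and at 2.23, 3.15, 1.64, 1.54 and 1.94 in GSK. The other 14 libraries lay between 1.31 and 3.93 FPKM, and MI replicate 5 stood alone. The difference for MI against Sham was 0.62 ± 0.33 SE (95% interval -0.09 to 1.33, adjusted p = 0.145), and 0.22 without MI replicate 5 (adjusted p = 0.346). Dbp shares 539 of its 2993 exon bases (18.0%) with Sphk2 on the other strand. Sphk2 was between 3.91 and 6.08 FPKM in all 15 libraries, so the low Dbp values are uncertain, and the value in MI replicate 5 lies above the highest of Sphk2.

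MI replicate 5 combined the highest Dbp, Nr1d1 and Per3 of all libraries with the lowest Arntl. Within that library Dbp was 4.82 times Arntl and Nr1d1 was 9.60 times Arntl. MI replicate 4 followed, at 1.00 and 4.47 times, and in the other 13 libraries Dbp was 0.235 to 0.672 times and Nr1d1 1.77 to 3.60 times Arntl. Sham replicate 5 departed from its group in another way, with the highest Cry1 and the lowest Per1 and Npas2 of all 15 libraries, and a ratio of Per1 to Cry1 of 0.334 against 0.63 to 1.90 elsewhere. The sample names give these 2 libraries the numbers 30 and 32 with the letter S, where other S numbers run from 2 to 22. Whether the numbers mark a day or hour of surgery or collection is not stated, and S number 5 stands in the names of both Sham replicate 2 and MI replicate 3. Without both libraries, an alternative chosen after seeing the data, the members called were 2 in MI against Sham (Cry1 and Nr1d2), 2 in GSK against Sham (Cry1 and Per1) and 0 in GSK against MI.

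**Figure D3:**
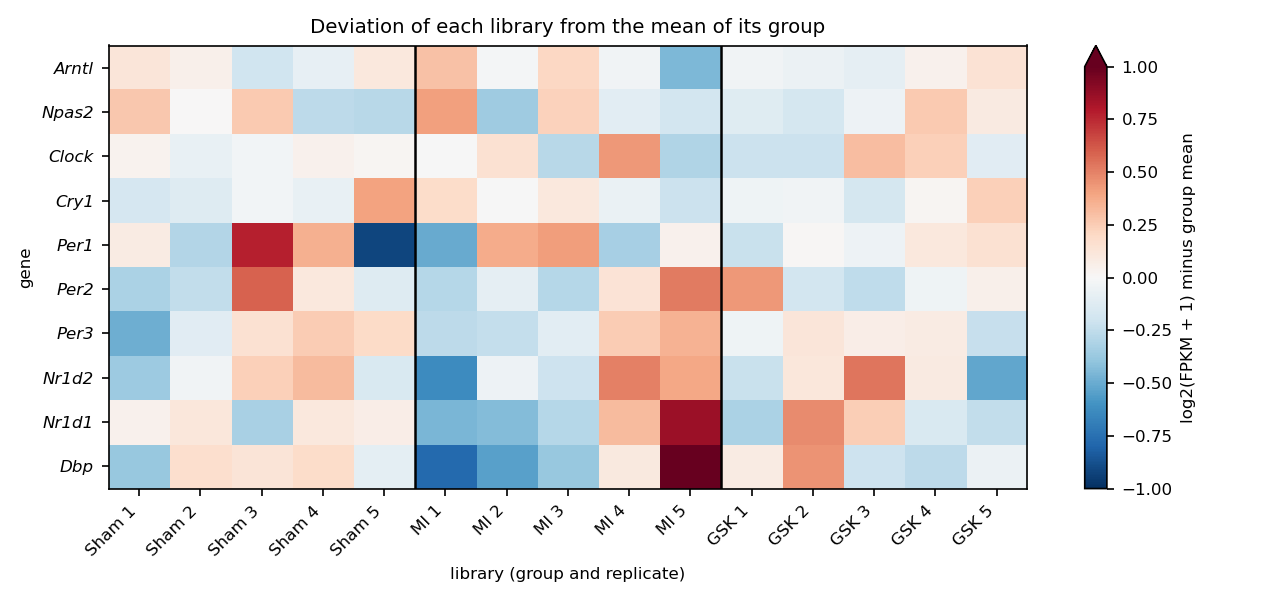
log2(FPKM + 1) of each member (rows) in each library (columns, group and replicate) minus the mean of its group, colour from blue (below) to red (above); black lines part the groups. MI replicate 5 is blue for Arntl (2.69 FPKM) and dark red for Nr1d1 (25.8 FPKM) and Dbp (13.0 FPKM, beyond the colour scale), and Sham replicate 5 is red for Cry1 and dark blue for Per1.

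Once group means were taken off, Arntl ran against Dbp, Nr1d2, Per2 and Per3 across the 15 libraries. As a description over 45 pairs, which share libraries and depth, Pearson's r was -0.84 for Arntl and Dbp (Spearman's rho -0.69), -0.75 for Arntl and Nr1d2 (rho -0.82), -0.72 for Arntl and Per2 (rho -0.65) and -0.67 for Arntl and Per3 (rho -0.69). Without MI replicates 1 and 5, the 2 farthest from the median of Arntl, these were -0.48, -0.72, -0.59 and -0.54. Nr1d1 and Dbp ran together (r = 0.80, rho 0.69; 0.53 without the same 2 libraries), as did Per3 and Nr1d2 (r = 0.78, rho 0.76). The pair of Arntl and Nr1d1 (r = -0.64, rho -0.47) fell to -0.17 without those 2 libraries and so rested on them. Arntl and Cry1 had r = 0.61 (rho 0.62, and 0.48 without them). Clock had r = 0.39 with Nr1d2 (rho 0.32), 0.07 with Per3 (rho 0.01) and -0.05 with Nr1d1 (rho -0.01), and Npas2 had r = 0.17 with Per1 (rho 0.08). Without MI replicate 4 and GSK replicate 3, the 2 farthest from the median of Clock, Clock and Nr1d2 had r = -0.05. Other pairs of Clock or Npas2 with a Per gene, Nr1d1, Nr1d2 or Dbp were negative. Examples were Clock and Dbp (r = -0.41, rho -0.34) and Npas2 and Nr1d2 (r = -0.44, rho -0.39). Among the activators, Arntl and Npas2 had r = 0.46 (rho 0.46, and 0.25 without MI replicates 1 and 5). Arntl and Clock had r = 0.10 (rho -0.04).

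Among all tested protein-coding genes, those whose deviations were most like Arntl were Ifih1 (r = 0.92), Ets1 (0.89), Irgm1 (0.87), Lama4 (0.86) and Atp1b2 (0.86), and those most opposed were Gata6 (-0.92), Usp2 (-0.86), Dbp (-0.84), Smoc1 (-0.78) and Aimp2 (-0.76), over 15 libraries. Usp2 encodes a deubiquitinase and has a clock-driven transcript. Without MI replicate 5 the values for Arntl were -0.82 with Gata6, -0.67 with Usp2, -0.56 with Dbp, -0.69 with Smoc1 and -0.38 with Aimp2. Dbp thus fell behind Smoc1, and the 5 nearest lay between 0.77 and 0.87. Genes were not ranked anew without that library, where Arntl and Nr1d2 had r = -0.82. For Dbp the nearest were Mrpl20 (r = 0.92), Tubb4b (0.89), Aifm2 (0.89), Pcna (0.88) and Slc35a4 (0.88), and the most opposed Sash1 (-0.86), Chd8 (-0.85), Ankrd44 (-0.84), Baz2b (-0.84) and Arntl (-0.84). Without MI replicate 5 all of the Dbp correlations shrank, to between 0.63 and 0.83 and between -0.70 and -0.56.

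Of 23 further clock genes, 19 passed the filter on low values, and in MI against Sham 7 of these were lower, 3 higher and 9 not called (median difference -0.20), a share near the 43.8% called over all tested genes. The balance turned after totals were equalised over nuclear genes, with 3 lower and 5 higher. Hlf, a PAR bZIP factor related to Dbp, fell from 3.08 ± 0.478 to 0.909 ± 0.475 FPKM (difference -1.12 ± 0.17 SE, adjusted p = 0.000182), with 1.91 ± 0.613 in GSK. Its other relative Tef was at 10.6 ± 1.54, 9.33 ± 2.92 and 8.79 ± 1.00 FPKM in Sham, MI and GSK (adjusted p = 0.314 for MI). Nfil3, the repressor that competes with these factors at D-boxes, fell from 14.6 ± 2.98 to 9.41 ± 1.27 FPKM (-0.57 ± 0.12, adjusted p = 0.00143). Rora, which encodes an activator at ROR elements, was called lower (-0.26 ± 0.10) but lost the call in 17 of 28 alternatives (adjusted p = 0.0467, up to 0.269). The 5 MI libraries did not overlap the 5 Sham libraries for 6 of the 19, Hlf and Nfil3 among them (29.8% of all tested genes did not overlap).

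Genes of kinases and cofactors that act on the clock were divided. Some were called lower, Csnk1d was called higher, and others of the list were not called. Prkaa2, a catalytic subunit of AMPK, a kinase that destabilises Cry1 protein, fell from 25.4 ± 0.939 to 15.5 ± 3.34 FPKM (-0.70 ± 0.14 SE, adjusted p = 0.000874). The corepressor gene Ncor1 (-0.34 ± 0.07), the kinase gene Csnk2a1 (-0.28 ± 0.08) and the deacetylase gene Sirt1 (-0.37 ± 0.12) were also called lower, and all 3 calls were lost after totals were equalised over nuclear genes. The call of Sirt1 was also lost without Sham replicate 3 (adjusted p = 0.0526) and without MI replicate 5 (adjusted p = 0.0537). The E-box repressors Bhlhe40 and Bhlhe41 rose, from 7.45 ± 2.14 to 18.1 ± 5.74 and from 2.05 ± 0.206 to 4.88 ± 1.49 FPKM (1.16 ± 0.23 and 0.91 ± 0.18 SE, adjusted p = 0.000984 and 0.00116). Csnk1d, a kinase of the Per proteins, was called higher (0.23 ± 0.09) and lost the call in 11 of 29 alternatives (adjusted p up to 0.116). The second cryptochrome, Cry2, was at 4.28 ± 0.875, 3.56 ± 0.495 and 3.22 ± 0.265 FPKM in Sham, MI and GSK (adjusted p = 0.129 for MI), and was called lower in MI without Sham replicate 1 (adjusted p = 0.0381). Ciart, a repressor of the loop, did not pass the filter, with 0.362 to 1.17 FPKM in the 15 libraries.

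**Figure D4:**
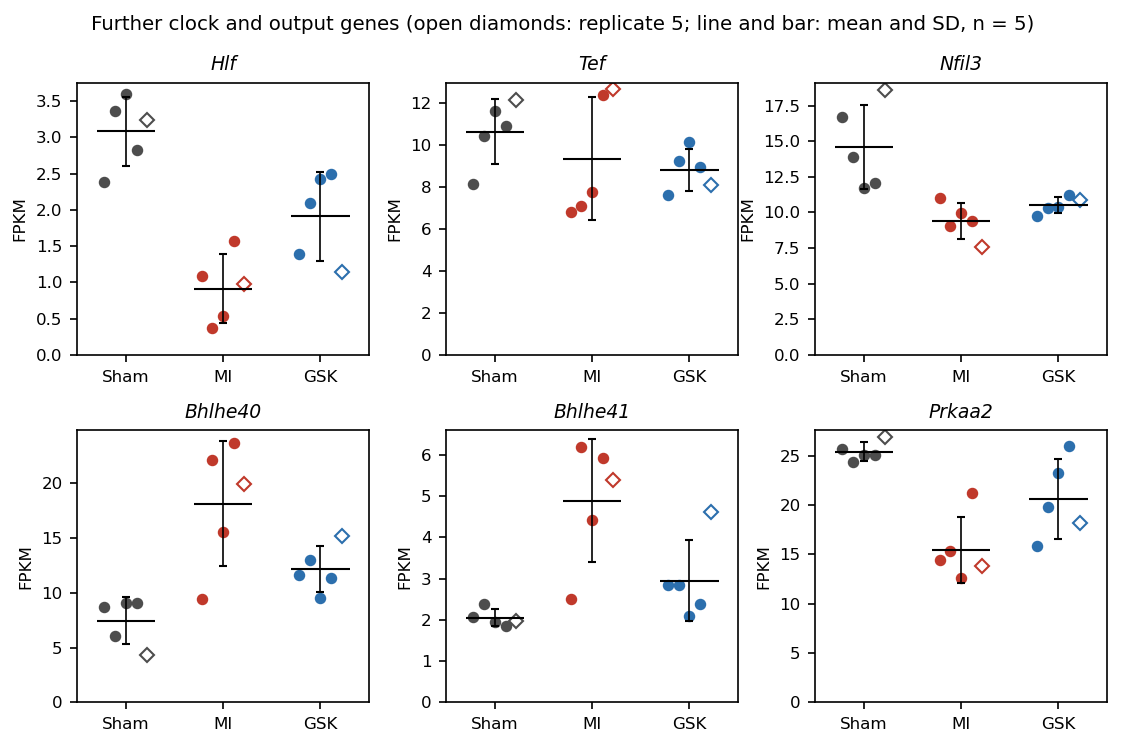
FPKM (vertical axes, from 0) of 6 further clock genes in the 5 libraries of each group, with mean and SD; open diamonds mark replicate 5. Hlf in MI (0.909 ± 0.475) lies wholly below Sham (3.08 ± 0.478), Bhlhe40 and Bhlhe41 wholly above it, and the GSK means lie between Sham and MI for all but Tef.

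In GSK against Sham, 2 of the 19 were lower and 0 higher (Nfil3 and Csnk2a1), where 18.3% of all tested genes were called. After totals were equalised over nuclear genes 0 were lower and 1 higher, and with the 2 groups fitted alone 5 were lower and 1 higher. The count fell to 0 without Sham replicate 5, without GSK replicate 1 or 5, or without the 2 GSK libraries whose names carry the letter G. It was 1 without Sham replicate 1, 2 or 3, 4 without GSK replicate 3, and 5, 4 and 4 without MI replicates 2, 4 and 5. MI libraries enter this comparison only through the shared spread and the filter on low values, which sets the genes tested. In GSK against MI 0 of 19 were called, with 7 at an unadjusted p under 0.05 (0% and 21% of all tested genes). The number called was 1 without MI replicate 1 and 2 without GSK replicate 5. Genes known as outputs of the cardiac clock fell in 10 and rose in 1 of 14 tested members in MI against Sham (median difference -0.83), where 21.9% of all tested genes were called lower. In GSK against Sham 5 of the 14 were lower and 0 higher (7.58% of all tested genes lower), a count between 1 and 7 with 1 library left out, and 2 after totals were equalised over nuclear genes. Klf15, a transcription factor of cardiac metabolism, fell from 26.0 ± 4.91 to 8.14 ± 3.55 FPKM (adjusted p = 8.45e-05), its target Kcnip2, a potassium channel subunit, from 55.3 ± 14.4 to 16.9 ± 9.93 (adjusted p = 0.000673), and Nampt, which makes a precursor of NAD, from 43.3 ± 5.30 to 16.8 ± 4.07 (adjusted p = 3.96e-05). Pdk4 was not called (adjusted p = 0.0936), except without MI replicate 1 (adjusted p = 0.0165). Several of these genes are also cardiomyocyte or metabolic genes, and cardiomyocyte markers were lower in the same comparison (median difference -0.63), so their part in these counts was not tested.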

How the data were processed

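The authors deposited FPKM values for 54532 genes with gene lengths and coordinates on mm10. R 3.5.1, DESeq2, Subread with featureCounts, and HISAT2 appear, without a role, in lists taken per the submitters' processing notes. Annotation release, strand setting and filters: not given in the sources used here. FPKM times gene length was a whole multiple of a step of each library (100% of values below 1000 fragments within 0.01), which gave the fragments behind each value. The deposited FPKM are scaled by factors other than these fragment totals.

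Values were taken as log2(FPKM + 1), which understates changes of low genes, for the 12585 genes that reached 1 FPKM in 5 or more libraries; all 10 members passed. A model of group means over the 15 libraries was fitted in limma 3.58.1 (R 4.3.3, mean trend), with Benjamini-Hochberg adjustment over all tested genes and calls at an adjusted p under 0.05. Every adjusted p and interval is from this fit or, for an alternative, its refit. The fit was tested on simulated data. Per the labels' protocols the mice were independent, though 1 S number recurs in the names of a Sham and an MI library. Members, lists and tests were chosen with earlier results of these data known. Named genes are all members, the further clock genes that were called with Cry2, Ciart, Tef, Hlf and Nfil3, up to 4 genes of other lists in list order, genes overlapping a member, and the 5 most like and 5 most opposed to Arntl and to Dbp; other genes named beside counts of 5 or fewer were chosen after their values were seen. Alternatives covered pseudocounts 0.1 and 0.5, filters, scalings, samples in the fit, a replicate block, voom, the trend and each library left out; 1 was added after seeing the data. Replicate numbers were not taken to pair the libraries. Some genes of the table are not reported here.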

Additional observations from a re-analysis of the deposited data

Results flagged for a closer look

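In 3 of 45 sets of 5 libraries (15 clock genes in 3 groups) the most extreme library was farther from the others than Dixon's 95% limit for its group, a gap of more than 0.71 of the range; chance alone gives about 2.25. Cry1 in Sham replicate 5 was 8.36 FPKM, with the next library at 5.93. Nr1d1 in Sham replicate 3 was 10.1 FPKM, below the next at 13.4. Dbp in MI replicate 5 was 13.0 FPKM, with the next at 3.93.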

How the results depend on the processing

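Over 28 other settings and 1 chosen after seeing the data, the differences of the 10 members in 3 comparisons gave 856 values, of which 790 kept direction and side of the threshold, 39 changed sign, 21 lost a call and 6 gained one; the cause was not tested. Cry1 kept both calls throughout.

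Members called, each library left out in turn, ranged from 1 to 4 in MI against Sham (1 without MI replicate 3), 0 to 0 in GSK against MI and 1 to 2 in GSK against Sham. The last was 1 with no filter, without the 2 mixed Sham libraries and without the 2 G libraries of GSK. It was also 1 at a filter of 5 FPKM, which Npas2 did not pass, so that gene was not tested there. It was 3 (Clock, Cry1 and Nr1d2) without MI replicate 4 and GSK replicates 3 and 4. All genes called ranged from 4664 to 5642, 0 to 391 and 1176 to 2874. They were 3270 in MI against Sham at the 5 FPKM filter. In GSK against MI they were 3 at pseudocount 0.1, 3 at 0.5 and 2 with voom. In GSK against Sham they were 1384 at the 5 FPKM filter, 1217 without the mixed Sham libraries and 1377 without the G libraries.

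Signs turned in results that were not called. In MI against Sham, Per2 was -0.020 with quantile normalization, -0.14 without the mixed Sham libraries and -0.12 without replicate 5 of Sham and MI, and Per3 was -0.041, -0.18 and -0.017, and -0.042 without MI replicate 4 and GSK replicates 3 and 4. Nr1d1 was -0.11 without both replicates 5. In GSK against MI without both, Per3 was 0.028 and Nr1d1 0.014. In GSK against Sham, Dbp was -0.017 with quantile normalization, -0.044 without the mixed Sham libraries and -0.15 without the G libraries. With totals equalised over nuclear genes, Arntl was 0.090, Per3 0.032 and Nr1d1 0.013. Arntl was 0.034 without the mixed Sham libraries, 0.0093 without the G libraries and 0.0042 without both replicates 5, where Per3 was 0.011. Clock was 0.0058 without the G libraries. Leaving out each library gave, in MI against Sham, -0.088 to 0.19 for Per2, -0.10 to 0.086 for Per3 and -0.13 to 0.20 for Nr1d1. In GSK against MI it gave -0.12 to 0.028 for Per3 and -0.32 to 0.014 for Nr1d1. In GSK against Sham it gave -0.073 to 0.0077 for Arntl, -0.086 to 0.092 for Dbp and -0.16 to 0.025 for Per3.

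With the replicate number as a block, 3, 0 and 2 members were called, the same genes as without it, and 5021, 0 and 1459 genes in all. Of the further clock genes the block left 0 called in GSK against Sham (Nfil3 adjusted p = 0.058, Csnk2a1 0.0727). Same-numbered libraries did not regularly deviate together (correlations -0.41 to 0.49, the highest for replicate 4 of GSK and MI), so the numbers were not taken as pairs. Depth limits Per2 most, with 71 fragments in its lowest library.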

Other observations

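Of 10 immediate early genes 9 were tested, and in MI against Sham 5 were higher and 0 lower (Junb, Egr2, Atf3, Ier2 and Btg2), with a median difference of 0.75, where 21.9% of all tested genes were called higher. Of the same genes 2 were higher in GSK than in Sham (Jun and Egr2), where 10.8% of all tested genes were called higher. In GSK against MI 0 were called and 3 had an unadjusted p under 0.05 (0% and 21% of all tested genes). Of 8 genes that respond to heat or cold, in MI against Sham Rbm3 was higher and Hsph1 and Cirbp were lower. Hsph1 and Cirbp were also lower in GSK than in Sham. Over all tested genes 43.8% were called in MI against Sham and 18.3% in GSK against Sham. The summed level of these 8 genes was 1194 FPKM in MI replicate 2, against 432 to 782 in the other 14 libraries.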
